A study of Mus musculus with 30 samples.

Results

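Immediate-early genes are genes whose mRNA appears within minutes of a stimulus without the need for new protein. The 10 described here were Fos, Fosb, Fosl2, Jun, Junb, Jund, Egr1, Ier2, Ier3 and Nr4a1, and they were measured in collagenase-separated cells of mouse white fat. They were chosen by name as genes that respond to tissue digestion, but with earlier results of these data known. Each was matched to 1 of the 35120 Ensembl genes in the deposited count table. All 10 were found, and all passed the filter on low counts in every comparison. The lowest count of any of them in any library was 541.

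Transcription of these genes is started by factors that already sit in the resting cell, such as serum response factor with its partners and CREB, once kinases of the MAP kinase and cAMP pathways reach them. Their mRNAs decay quickly, so their level follows recent signalling. Enzymatic digestion, warming and loss of contact with neighbouring cells are known triggers, and in studies of dissociated tissue these genes are widely used to mark a response to the procedure. In fat, the Fos and Jun proteins also take part in preadipocyte differentiation and in stress signalling.

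Each library was a strand-specific mRNA library of cells from white fat, and each label names both the epididymal and the posterior subcutaneous depot, for females too. Minced fat was shaken at 37 °C with 500 U/ml collagenase in buffer with 500 nM adenosine. The digestion lasted 20 min for the epididymal and 30 min for the subcutaneous depot. The suspension was then strained and spun, which separated floating adipocytes from pelleted stromal-vascular cells (SVC), in which fibroblast-like precursors lie together with immune, endothelial and mural cells. No undigested tissue was analysed here, so every value below was measured after digestion, and no value gives the effect of digestion itself.

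There were 6 groups and 30 libraries. Controls were labelled Ctnnb1flfl, which means that they carry loxP-flanked copies of Ctnnb1, the gene of β-catenin. The other mice were labelled Ctnnb1KO, and Ctnnb1AdKO in the protocol, a deletion in adipocytes. Controls were matched for sex and age, but neither the ages nor the driver of the deletion nor the exons removed could be read from the labels. Adipocytes came from 6 male control, 5 male knockout, 6 female control and 6 female knockout libraries. SVC came from 3 male control and 4 male knockout libraries. The labels do not say that replicate numbers are separate mice, so p-values measure the spread between these libraries.

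Depth was nearly equal, with library totals from 20484836 to 22209603. The adipocyte fraction held its defining markers, with a summed level of 8 adipocyte genes between 29770 and 52190 counts per 1000000 counts of the library (CPM) against 982.6 to 2168 in SVC. Other cells' RNA was present in the floating fraction at a low level, with 10 macrophage genes summing to between 71.2 and 1103 CPM there and to between 5483 and 10730 CPM in SVC. Ctnnb1 was not called lower in the knockout libraries (log2 -0.027 in male adipocytes, 0.11 in female adipocytes and 0.082 in SVC, edgeR adjusted p = 0.919, 0.670 and 0.979). Since the removed exons are not named, the gene total does not check the labels of adipocytes. The protocol's label places the deletion in adipocytes, so for SVC the word knockout names the mouse and does not imply a loss in these cells.

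The promoters of the members show what some of them share in sequence. Windows of 300 bases are printed for 4 of them, 250 before and 50 after the annotated start, from RefSeq on GRCm38.p6 (the counts used mm39). They belong to Nr4a1 (chr15:101266596-101266895, plus strand) and Junb (chr8:84978699-84978998, minus strand), the members that differed most between the cell fractions. Fos (chr12:85473640-85473939, plus strand) and Jun (chr4:95052173-95052472, minus strand) are shown because their levels varied together between libraries. Capitals mark the CRE core TGACG on either strand, the short element of the site that CREB binds.
Nr4a1: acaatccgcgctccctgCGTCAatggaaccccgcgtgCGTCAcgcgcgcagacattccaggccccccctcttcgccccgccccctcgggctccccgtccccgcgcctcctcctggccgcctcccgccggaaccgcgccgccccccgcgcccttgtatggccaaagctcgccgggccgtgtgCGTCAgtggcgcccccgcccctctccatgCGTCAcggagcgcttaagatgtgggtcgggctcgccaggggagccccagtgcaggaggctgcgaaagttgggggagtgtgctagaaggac
Junb: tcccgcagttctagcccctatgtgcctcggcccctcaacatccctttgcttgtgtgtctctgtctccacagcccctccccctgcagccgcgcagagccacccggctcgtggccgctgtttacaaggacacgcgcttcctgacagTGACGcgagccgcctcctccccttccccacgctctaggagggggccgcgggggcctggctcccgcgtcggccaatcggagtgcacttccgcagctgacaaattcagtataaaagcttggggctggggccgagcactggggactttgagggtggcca
Fos: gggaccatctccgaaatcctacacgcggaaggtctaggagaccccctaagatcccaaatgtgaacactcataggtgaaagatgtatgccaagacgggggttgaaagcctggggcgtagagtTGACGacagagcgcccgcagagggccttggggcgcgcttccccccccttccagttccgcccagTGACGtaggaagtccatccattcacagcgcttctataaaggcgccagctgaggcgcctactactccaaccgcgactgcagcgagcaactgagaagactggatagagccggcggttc
Jun: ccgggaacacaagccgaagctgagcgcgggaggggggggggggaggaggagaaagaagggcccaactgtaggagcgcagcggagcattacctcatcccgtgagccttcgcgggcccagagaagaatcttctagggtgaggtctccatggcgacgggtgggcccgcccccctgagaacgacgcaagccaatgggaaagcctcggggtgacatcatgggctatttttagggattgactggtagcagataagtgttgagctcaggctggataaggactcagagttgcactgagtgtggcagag
Nr4a1 held 4 copies, Fos 2 and Junb 1, and the printed Jun window held none. Of the 10 members 8 had an entry in the promoter table, and 4 of the 8 (Fos, Fosb, Junb and Nr4a1) held at least 1 copy, against 21.0% of all 27025 promoters of this length. The EGR site GCGNGGGCG, where N is any base, was found on either strand in 3 of the 8 (Fosb, Fosl2 and Nr4a1) against 5.55% of all promoters. The TATA motif TATAAA, also searched on both strands, was in Fos and Junb, against 14.2% of all promoters. Counted from the annotated start, it lay at bases -33 to -28 in Fos but at bases 1 to 6 in Junb. Neither the full CRE TGACGTCA (1.88% of all promoters), nor the AP-1 site TGANTCA (7.93%), nor the CArG box of serum response factor (1.57%) was found in any of the 8 windows. Egr1 and Ier2 are the members without a window. Sites outside the windows were not searched, so the members may hold such sites farther from the start. A match describes these letters only and is not evidence that a factor binds there.

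All 10 genes were abundant in digested adipocytes. Their counts together made up 0.511% ± 0.0515 of all counts in male control adipocytes (SD, n = 6), 0.511% ± 0.0457 in male knockouts (n = 5), 0.515% ± 0.0793 in female controls (n = 6) and 0.451% ± 0.0864 in female knockouts (n = 6). In SVC the share was 1.085% ± 0.172 in controls (n = 3) and 1.10% ± 0.402 in knockouts (n = 4). The SVC and adipocyte shares of the male control libraries did not overlap (0.894 to 1.23% against 0.458 to 0.604%). These shares are on library totals. On that scale the median log2 difference over all genes tested was itself 0.85 towards SVC in male controls and 0.748 in male knockouts. The higher share in SVC is therefore not read as particular to the members. CPM is not corrected for transcript length, so the level of one gene is not compared here with that of another.

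**Figure D1:**
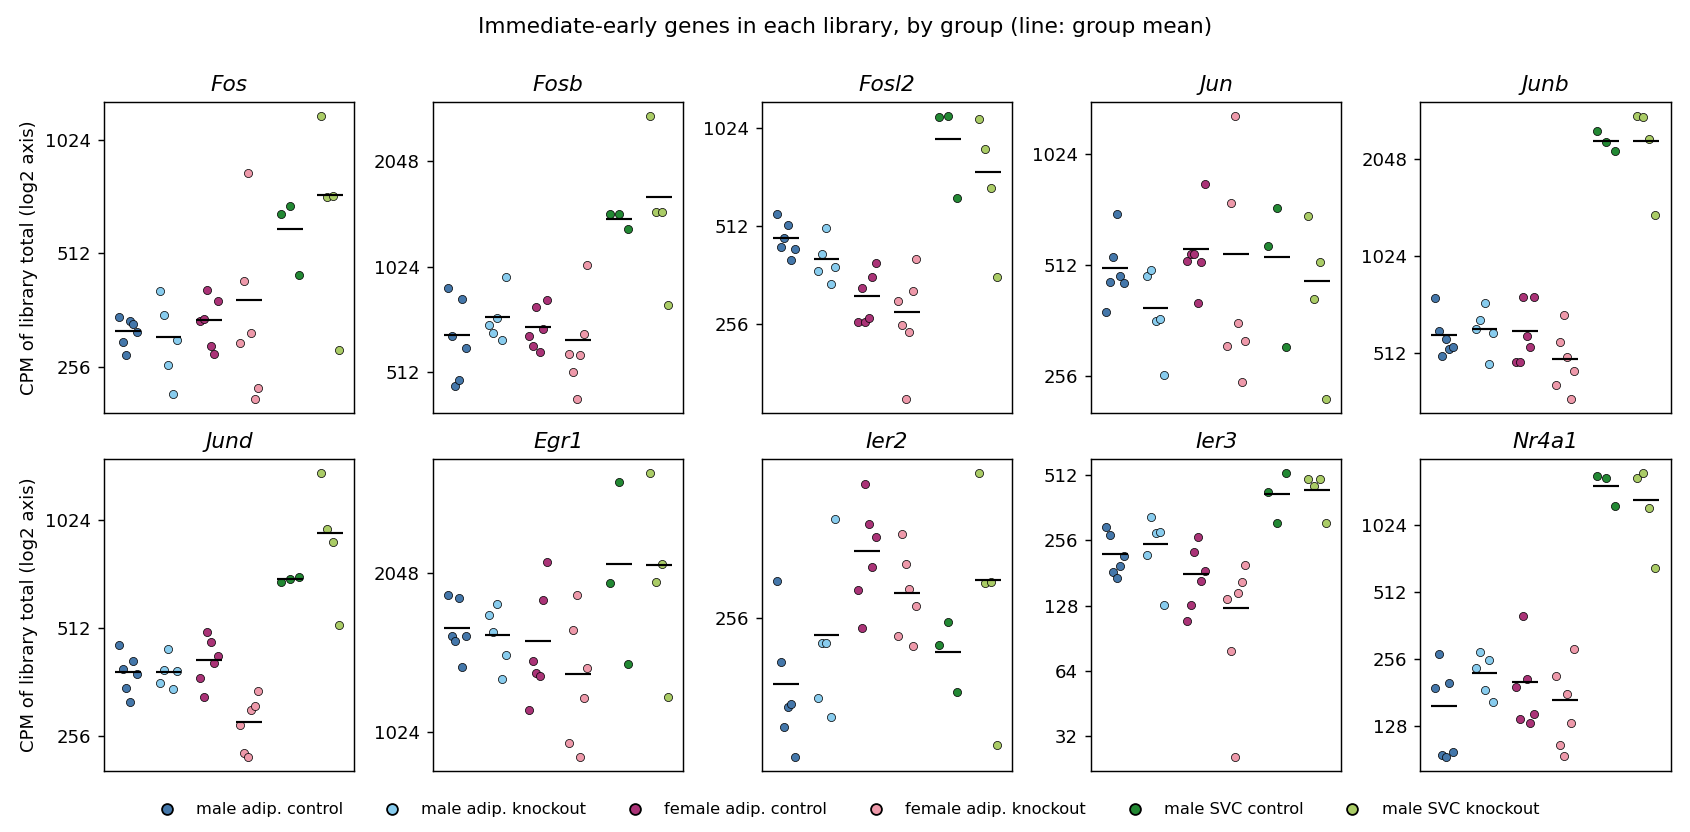
CPM of each of the 10 genes (log2 axis, 1 panel a gene) in each of the 30 libraries, by group, with a line at the group mean. Nr4a1 and Junb lie higher in every SVC library than in any adipocyte library, while Jun and Ier2 overlap between the fractions.

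The comparison of fractions asks how much more of these mRNAs the pelleted cells held than the floating adipocytes after the same digestion. In male controls Nr4a1 and Junb were higher in SVC, 6.77-fold and 2.76-fold, and these were the 2 members of 10 called by edgeR's quasi-likelihood F-test at a Benjamini-Hochberg adjusted p below 0.05. Of all 17251 genes tested, 77.1% were called, 44.2% as higher and 32.8% as lower in SVC, so 2 of 10 is below the background. The members' median log2 difference was 0.37, against 0.29 over all genes tested. These folds are on the edgeR scale, which corrects each library for the few genes that take a large share of its counts (TMM scaling). On plain library totals the median of all genes shifted by 0.555 towards SVC and 7 of the 10 members were called higher, so the choice of scale sets most of the calls. The share of calls that were higher in SVC was 57.4% with TMM scaling and 71.9% on library totals.

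Nr4a1 encodes an orphan nuclear receptor, Nur77, which is induced without a known ligand. It read 1706, 1680 and 1255 CPM in SVC controls 1 to 3. Male control adipocytes ranged from 92.6 to 268.5 CPM with a median of 143.6, so the fractions did not overlap. The log2 difference was 2.76 (SE 0.33, adjusted p = 1.04e-06).

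Junb encodes a Jun protein that pairs with Fos proteins to form AP-1 and can restrain the action of c-Jun. Its SVC control libraries read 2500, 2325 and 2179 CPM. Male control adipocytes lay between 500.3 and 762.1 CPM, with a median of 550.8. Again every SVC library was above every adipocyte library, with a log2 difference of 1.46 (SE 0.21, adjusted p = 5.68e-06). Nr4a1 and Junb were called under all 17 alternatives run on this comparison.

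The Fos proteins bind DNA only with a Jun partner. Fos itself was at 652.4, 683.8 and 449.6 CPM in SVC controls and at 276.2 to 348.0 CPM (median 324.7) in male control adipocytes. The libraries did not overlap, yet the difference was not called after composition scaling (log2 0.34, SE 0.30, adjusted p = 0.298). Fosb, whose truncated form accumulates with repeated stimulation in brain, read 1444, 1451 and 1314 CPM against 468.2 to 890.9 CPM (log2 0.56, SE 0.29, adjusted p = 0.0896). Fosl2, which encodes Fra-2, read 1103, 1113 and 623.6 CPM against 402.6 to 556.8 CPM (log2 0.44, SE 0.26, adjusted p = 0.133). All 3 thus had separate groups on library totals and no call on the edgeR scale. For no comparison was the share of all genes with separate groups counted. With 77.1% of all genes called between these fractions, separation is not read as particular to the members. With the 2 control groups fitted alone, all 3 were called (adjusted p = 0.0286, 0.0262 and 0.0307), which made 5 members of 10.

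The remaining Jun genes and the other members fell on both sides of 0. Jund, which most cells express more steadily than Jun and Junb, read 691.3, 703.7 and 712.5 CPM in SVC controls against 319.5 to 460.7 CPM in adipocytes (log2 0.33, SE 0.22, adjusted p = 0.188). Ier3, an early gene that acts on cell survival, read 426.3, 308.0 and 522.3 CPM against 171.8 to 296.7 CPM (log2 0.40, SE 0.27, adjusted p = 0.181). Both were separate between the fractions in CPM, which again was not counted over all genes. Jun (log2 -0.48, SE 0.32), the growth-response factor Egr1 (-0.17, SE 0.26) and Ier2 (-0.38, SE 0.27), an early gene whose protein enters the nucleus, overlapped between the fractions, and on library totals the sign of all 3 turned to 0.10, 0.40 and 0.17. Their adjusted p on the edgeR scale were 0.174, 0.563 and 0.209.

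**Figure D2:**
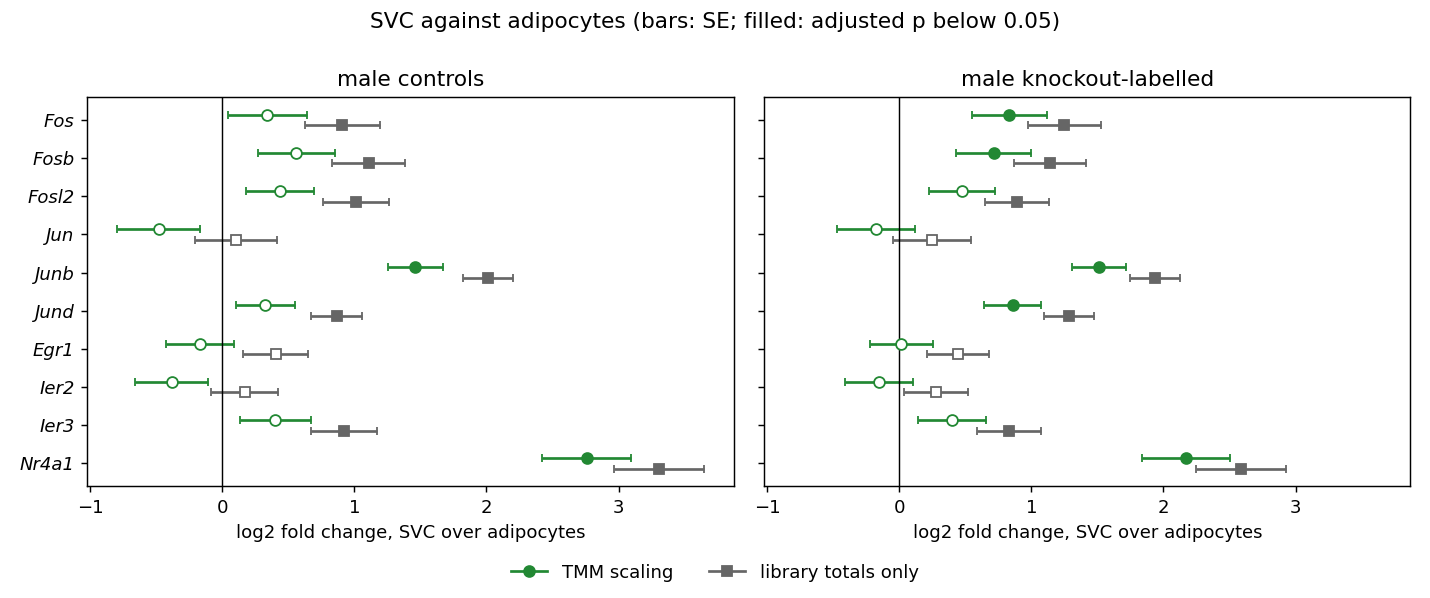
Log2 fold change of SVC over adipocytes for each gene in male controls (left) and in male knockouts (right), with TMM scaling (circles) and on library totals only (squares). Bars are SE and filled symbols have an adjusted p below 0.05. Library totals shift every gene to the right, and Nr4a1 and Junb are filled on both scales.

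Knockout-labelled mice gave the same comparison with other libraries, and 5 of 10 members were called higher in SVC against 76.5% of all genes called (44.7% higher, 31.8% lower). The members' median log2 difference was 0.59, against 0.29 over all genes. Nr4a1 read 1678, 1758, 1233 and 658.5 CPM in SVC knockouts 1 to 4 and 232.8, 274.7, 185.7, 252.4 and 163.3 CPM in adipocyte knockouts 1 to 5 (log2 2.17, SE 0.33, adjusted p = 1.70e-05). Junb read 2798, 2778, 2370 and 1378 CPM against 606.6, 648.8, 732.5, 473.5 and 589.7 CPM (log2 1.51, SE 0.20, adjusted p = 3.43e-06). Neither gene overlapped between the fractions.

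Jund, Fos and Fosb made up the other 3 calls. Jund read 1385, 969.2, 892.4 and 524.8 CPM in SVC knockouts and 361.2, 391.8, 449.7, 348.2 and 388.5 CPM in adipocytes (log2 0.86, SE 0.21, adjusted p = 0.001497), with no overlap. Fos read 1187, 721.3, 727.7 and 283.7 CPM against 406.1, 350.7, 259.8, 217.5 and 302.5 CPM (log2 0.83, SE 0.28, adjusted p = 0.0133). SVC knockout 4 lay inside the adipocyte range for Fos, and so it did for Fosb (2760, 1467, 1465 and 793.7 CPM against 699.4, 663.0, 732.0, 631.8 and 955.5 CPM, log2 0.71, SE 0.28, adjusted p = 0.0290).

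Jund lost its call only where libraries were paired by number, while Fos and Fosb also lost theirs with a library left out or another method. Of 17 alternatives, Jund was called in 16, Fos in 14 and Fosb in 11. With limma-voom 3 members were called, and Fos and Fosb stood at log2 0.67 and 0.57 (adjusted p = 0.0521 and 0.0764). With only the compared groups fitted, Fosb was at 0.76 (adjusted p = 0.0525). The number in the column names was also used as a block, which treats same-numbered adipocyte and SVC libraries as pairs. With it 2 members (Nr4a1 and Junb) were called. Jund, Fos and Fosb then stood at log2 0.65, 0.81 and 0.47 with adjusted p = 0.0652, 0.0547 and 0.188. Without SVC knockout 1, 3 members were called. Fos and Fosb were then at log2 0.49 and 0.32 (adjusted p = 0.09996 and 0.243). Fosb also lost its call without adipocyte knockout 2 or 4 (adjusted p = 0.0566 and 0.0608). Without SVC knockout 4, 7 members were called, with Fosl2 (log2 0.73, adjusted p = 0.00118) and Ier3 (0.57, adjusted p = 0.0484) added. On library totals 7 were called, the median of all genes shifted by 0.454, and the share of calls that were higher went from 58.4% to 70.9%, with Jun and Ier2 turning from log2 -0.18 and -0.15 to 0.25 and 0.28. Whether the fractions differed more in one genotype than in the other was tested as an interaction. No member was called (edgeR, 0% of all genes called, 0 members with an unadjusted p below 0.05, and 0 members by DESeq2 and by limma-voom), and Nr4a1 was at -0.59 (SE 0.48, adjusted p = 0.796) and Jund at 0.53 (SE 0.31, adjusted p = 0.764).

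Counts over 5 further gene lists are a description, since 77.1% of all genes were called between the fractions of controls (44.2% higher and 32.8% lower in SVC) and 76.5% between those of knockouts (44.7% and 31.8%). Of 16 other immediate-early transcription factors, 9 were higher and 3 lower in SVC than in adipocytes of male controls, and 10 and 3 in knockouts. The share called was close to that of all genes. The largest differences were in the relatives of Nr4a1. Nr4a3 stood at 846.9 ± 95.2 CPM in SVC controls (SD, n = 3) and 13.8 ± 5.22 CPM in adipocytes (n = 6), a log2 difference of 5.41 (SE 0.28, adjusted p = 4.75e-11). Nr4a2 differed by 3.95 (SE 0.27, adjusted p = 9.91e-10) and the Krüppel-like factor Klf4 by 3.11 (SE 0.24, adjusted p = 3.03e-09). The factors lower in SVC were Egr2 (log2 -0.99, adjusted p = 2.39e-05), a relative of Egr1, the small Maf factor Maff (-0.76, adjusted p = 0.00705) and Srf (-0.57, adjusted p = 0.0279), the serum response factor. Srf and Maff were not called on library totals (log2 -0.031 and -0.23, adjusted p = 0.897 and 0.311). Srf lost its call with upper-quartile scaling (adjusted p = 0.0717), without male adipocyte control 2 or 5 (adjusted p = 0.0592 and 0.0570) or without SVC control 1 or 2 (0.102 and 0.0661), and Maff without SVC control 1 (0.0518).

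Feedback inhibitors limit the response, and among 15 of them 7 were higher and 3 lower in SVC of controls, against 8 and 3 in knockouts. The share called in controls was below the 77.1% of all genes. The MAP kinase phosphatases Dusp2, Dusp5 and Dusp1 were higher by log2 4.64, 4.55 and 1.98 in controls (adjusted p = 2.11e-10, 2.60e-10 and 2.88e-07). Trib1, Dusp4 and Btg2 were lower, by log2 -1.51, -2.06 and -1.02 (adjusted p = 2.03e-07, 7.22e-07 and 0.00299), Btg2 not on library totals (-0.48, adjusted p = 0.113). The phosphatases thus differed in both directions. Of 17 early secreted and cytoplasmic genes 11 were higher and 2 lower in controls, and 11 and 1 in knockouts. The prostaglandin synthase Ptgs2 led with 536.1 ± 60.9 CPM in SVC (SD, n = 3) against 3.63 ± 2.00 CPM in adipocytes (n = 6), log2 6.68 (SE 0.43, adjusted p = 5.67e-10). The cytokine Il6 differed by 4.23 (adjusted p = 9.86e-10) and the kinase Sgk1 by 2.25 (adjusted p = 2.03e-09), while Rhob and Gadd45g were lower by log2 -0.64 and -0.63 (adjusted p = 0.00409 and 0.0225), neither on library totals (-0.081 and -0.058, adjusted p = 0.646 and 0.826). Gadd45g also lost its call with upper-quartile scaling (adjusted p = 0.0636) and without SVC control 1 or 3 (0.0598 and 0.101), and Rhob with the replicate block (0.0529).

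Of 16 kinases and factors upstream of the early genes, 9 were higher and 5 lower in SVC of controls, against 8 and 3 in knockouts, where the share called was below the 76.5% of all genes. Mrtfa, a cofactor of serum response factor, was higher by log2 2.17 (adjusted p = 1.82e-10), the kinase Rps6ka1 by 2.32 (adjusted p = 2.21e-08) and Creb1, which encodes CREB, by 1.94 (adjusted p = 5.84e-08). Mapk9, which encodes a Jun kinase, was lower by log2 -0.98 (adjusted p = 6.52e-08), with Elk1 at -0.92 and Rps6ka3 at -0.96 (adjusted p = 3.83e-05 and 6.31e-05). Of 11 heat shock genes 0 were higher and 2 lower in SVC controls, Hspe1 (log2 -1.60, adjusted p = 0.000289) and Dnajb1 (-1.80, adjusted p = 0.000401), and 5 were lower in knockouts. In bulk libraries such as these, more RNA per cell and more cells of a type cannot be told apart.

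Between the sexes 2 of 10 members differed in control adipocytes, 1 in each direction, against 43.8% of all 14227 genes called (23.7% higher and 20.1% lower in females). The members' median log2 difference was 0.072, against 0.049 over all genes. Fosl2 was lower in females, 1.52-fold, and Ier2 was higher, 1.57-fold. Both were called under all 20 alternatives run on this comparison. The labels do not say what each depot contributed to a library, and digestion time differed by depot, so sex, depot and digestion time cannot be told apart here.

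Fosl2 ranged from 260.4 to 394.7 CPM in the 6 female control libraries (median 298.7) and from 402.6 to 556.8 CPM in the 6 male ones (median 455.5). The sexes did not overlap, and the log2 difference was -0.60 (SE 0.18, adjusted p = 0.00826). Ier2 ranged from 247.2 to 408.7 CPM in females (median 322.4) and from 158.0 to 291.1 CPM in males (median 188.7), with male control 1 and 2 female libraries in the overlap. Its log2 difference was 0.65 (SE 0.17, adjusted p = 0.00308). The other 8 members had adjusted p between 0.368 and 0.863, with log2 differences between -0.32 (Ier3) and 0.35 (Nr4a1).

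The 5 further lists are counted here against the 23.7% of all genes that were higher and the 20.1% that were lower in females. Of the 16 other immediate-early factors 4 were higher and 1 lower, of the 15 feedback inhibitors 4 and 0, of the 17 early secreted and cytoplasmic genes 5 and 0, of the 16 upstream genes 2 and 6, and of the 11 heat shock genes 2 and 0. With 43.8% of all genes called, these counts are given as a description. Klf10 was higher by log2 1.498 (adjusted p = 0.00178), the stress factor Atf3 by 0.80 (adjusted p = 0.00280) and Srf by 0.64 (adjusted p = 0.0110), while Egr2 was lower (-0.75, adjusted p = 0.000908). Among inhibitors Dusp1, Nfkbia and Dusp6 were higher by 0.75, 0.68 and 0.86 (adjusted p = 0.00207, 0.00216 and 0.00428). Among secreted and cytoplasmic genes the matricellular protein gene Ccn1 was higher by 1.60 (adjusted p = 5.98e-06), the growth arrest gene Gadd45g by 0.92 (adjusted p = 0.000560) and Il6 by 1.30 (adjusted p = 0.00203). Of the upstream genes Rps6ka3 and Elk4 were higher (0.49 and 0.49, adjusted p = 0.00205 and 0.00718) and Mapk3, Mrtfb and Mapk9 lower (-0.35, -0.55 and -0.25, adjusted p = 0.000913, 0.00315 and 0.00573). Of the heat shock genes Hsp90ab1 and Hspd1 were higher (0.43 and 0.52, adjusted p = 0.00893 and 0.0130).

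Markers of other cells moved with sex as well. The 10 macrophage genes summed to between 269.3 and 553.4 CPM in female controls and to between 570.3 and 1103 CPM in male controls. The 8 preadipocyte and fibroblast genes summed to between 767.3 and 1228 CPM in females and to between 423.6 and 606.2 CPM in males. Both sums were separate between the sexes. Their part in the differences of Fosl2 and Ier2 was not tested.

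The genotype comparison asks whether the early genes differed between libraries labelled knockout and control. No member was called in male adipocytes, in female adipocytes or in the average over the sexes. edgeR called 0 of 10 members where it called 0.0703% of 14227 genes in males, 0.471% in females and 0.759% in the average. The count of all genes called behind these shares was unstable. The 10 genes in males became 332 without male knockout 5 and 159 with DESeq2, while the members called stayed at 0. The 67 in females and the 108 in the average ran from 32 (without female knockout 1) to 89 and from 60 (without male control 1) to 246 (without male knockout 5) with a library left out. Members with an unadjusted p below 0.05 numbered 0, 1 and 1, the 1 being Jund. DESeq2 and limma-voom called 0 members in males and in the average and 1, Jund, in females. Median log2 differences over the members were -0.000620, -0.15 and -0.11, against 0.015, 0.0064 and 0.0099 over all genes.

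Jund came closest to a call. It ranged from 224.8 to 343.5 CPM in the 6 female knockout libraries (median 289.9) and from 330.2 to 500.8 CPM in the 6 female controls (median 419.8). Only female control 2 lay within the knockout range, below knockout 6. The log2 difference was -0.51 (SE 0.12, adjusted p = 0.0521). Of 20 alternatives 6 called it: upper-quartile scaling (adjusted p = 0.0417), DESeq2 (0.00596), limma-voom (0.0496), library totals (0.0293), and the fits without female control 2 (0.0234) or without female knockout 6 (0.0330).

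In males Jund showed no such difference (319.5 to 460.7 CPM in controls, and 361.2, 391.8, 449.7, 348.2 and 388.5 CPM in knockouts, log2 -0.033, SE 0.12, adjusted p = 0.939). The difference between the sexes in the effect on Jund was log2 -0.48 (SE 0.17, unadjusted p = 0.0108, adjusted p = 0.428 with edgeR), so a difference between the sexes was not called. In that test 0.0141% of all genes and 0 of 10 members were called, 1 member had an unadjusted p below 0.05, and DESeq2 and limma-voom called 0 members. Averaged over the sexes Jund was at log2 -0.27 (SE 0.086, adjusted p = 0.132).

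The other members spread around 0. In male adipocytes Nr4a1 was at log2 0.47 (SE 0.32, adjusted p = 0.547) and Jun at -0.40 (SE 0.33, adjusted p = 0.636), the ends of the range. In female adipocytes the ends were Fos at 0.25 (SE 0.24, adjusted p = 0.781) and, after Jund, Ier3 at -0.46 (SE 0.32, adjusted p = 0.667). Of the 10 members, 8 had a negative value in females and 5 in males. For Fos the sign in females rested on 1 library, since it was -0.13 without female knockout 3.

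**Figure D3:**
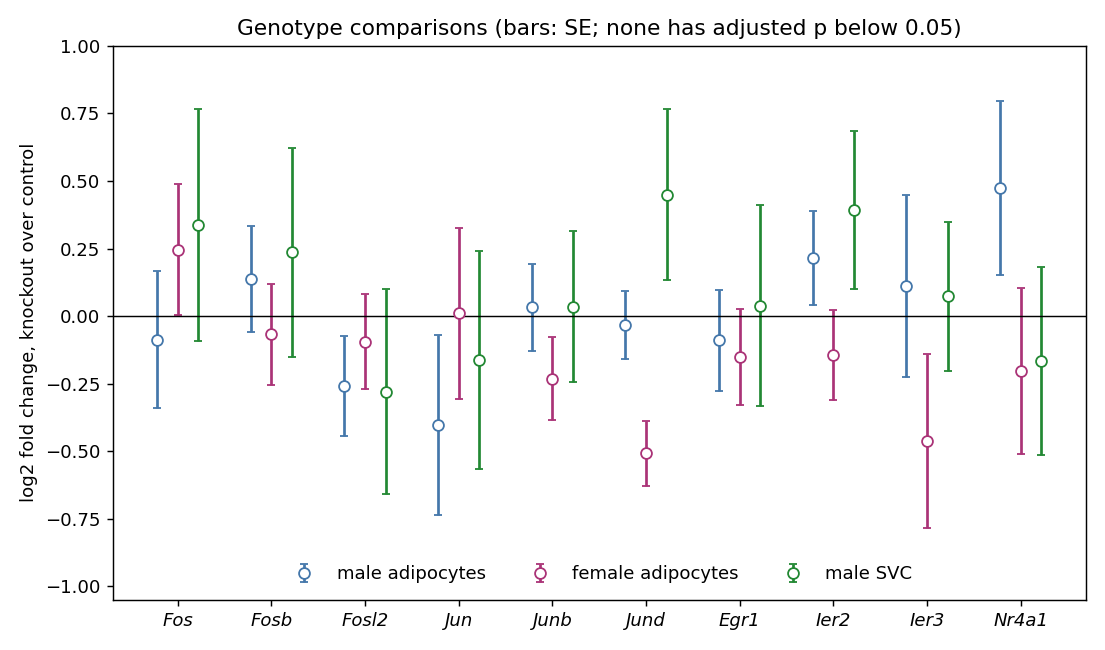
Log2 fold change of knockout over control for each gene in male adipocytes, female adipocytes and male SVC, with SE bars. All values lie between -0.51 and 0.47, and Jund in female adipocytes lies farthest below 0.

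No gene of the other 5 lists was called in any of these genotype comparisons. In female adipocytes the genes of smallest p were Atf3 (log2 -0.73, SE 0.20, adjusted p = 0.117, and 0.0304 by DESeq2), Trib1 (-0.36, adjusted p = 0.201), the survival gene Mcl1 (-0.31, adjusted p = 0.209), Hspa8 (-0.30, adjusted p = 0.407) and Mapk9 (0.13, adjusted p = 0.540). In male adipocytes they were Rps6ka3 (0.33, adjusted p = 0.266), Plk3 (0.44, adjusted p = 0.391), Klf4 (0.42, adjusted p = 0.399), Hspe1 (-0.49, adjusted p = 0.419) and Dusp6 (-0.43, adjusted p = 0.450). The list medians in females were -0.22 for other early factors, -0.33 for inhibitors, -0.22 for secreted and cytoplasmic genes, 0.071 for upstream genes and -0.42 for heat shock genes. In males they were 0.13, 0.0045, 0.074, 0.092 and -0.25. The females' macrophage sum was 71.2 to 337.7 CPM in knockouts and 269.3 to 553.4 CPM in controls, and their heat shock sum was 6656 to 14160 CPM against 10350 to 19790 CPM. The 6 mesothelial markers, of the cells that line the depot, summed to 4.604 to 21.3 CPM in male knockouts against 13.9 to 96.2 CPM in male controls, and to 6.93 to 15.35 CPM against 7.73 to 65.5 CPM in females. Of these Krt19 and Upk3b were called lower in the average over the sexes (log2 -2.12 and -1.51, adjusted p = 0.0262 and 0.0439). In SVC the mesothelial sum was 61.5 to 100.9 CPM in knockouts and 159.9 to 429.9 CPM in controls, which did not overlap. The part of any of these in the genotype values was not tested.

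In male SVC no member was called by genotype. edgeR called 0 of 10 members and 0% of 16404 genes, with 0 members and 429 genes at an unadjusted p below 0.05, while DESeq2 called 76 genes and 0 members and limma-voom 0 of each. Jund was at log2 0.45 (SE 0.32, adjusted p = 0.968), Ier2 at 0.39 (SE 0.29, adjusted p = 0.968) and Fosl2 at -0.28 (SE 0.38, adjusted p = 0.968). The standard errors, 0.28 to 0.43 over the members, show how far the SVC libraries spread. With 3 and 4 libraries, differences of that order were not detectable here. Of the other lists, the cytokine gene Lif (log2 -0.97) and Hspe1 (-1.04) had the smallest p, with adjusted p = 0.968 for both, and DESeq2 called both (adjusted p = 3.95e-05 and 0.0428). Klf10 (0.42), Errfi1 (-0.34) and Mapk3 (0.32) followed in their lists, also at adjusted p = 0.968.

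The same libraries were high or low across most members. SVC knockout 1 was the highest of its group in 8 of the 10 members and SVC knockout 4 the lowest in all 10. SVC control 3 was the lowest of its group in 8. How many of all genes ranked so was not counted, so these ranks are not read as particular to the members. Ctnnb1, which is not a member, was also highest in SVC knockout 1 and lowest in SVC knockout 4 (748.4 and 353.1 CPM). The members' share of all counts was 1.57%, 1.17%, 1.08% and 0.589% in SVC knockouts 1 to 4. In SVC controls 1 to 3 it was 1.13%, 1.23% and 0.894%.

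Within each SVC group, sums of endothelial, mural and fibroblast-like markers all ran in the same order as that share. The 8 endothelial genes summed to 3142, 1255, 1026 and 411.0 CPM in SVC knockouts 1 to 4 and to 1196, 1497 and 716.8 CPM in SVC controls 1 to 3. The 6 mural genes followed with 1704, 643.2, 593.7 and 273.3 CPM and with 815.0, 1087 and 407.9 CPM. The preadipocyte and fibroblast genes did so too, with 10030, 9636, 9109 and 7317 CPM and with 10900, 12800 and 9713 CPM, so the order was not particular to vascular markers. Across the groups it did not hold for the fibroblast genes, whose sum in SVC knockout 1 lay below SVC controls 1 and 2. The erythroid sum, by contrast, was 1041, 4246, 5963 and 2199 CPM in the knockouts. The macrophage sum did not follow either, with 6334, 10510, 9136 and 7844 CPM in knockouts and 5537, 5483 and 10730 CPM in controls. Nor did the adipocyte, granulocyte, lymphocyte and mesothelial sums in the knockouts. Whether the mix of cells in the pellet sets the members' level was not tested.

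**Figure D4:**
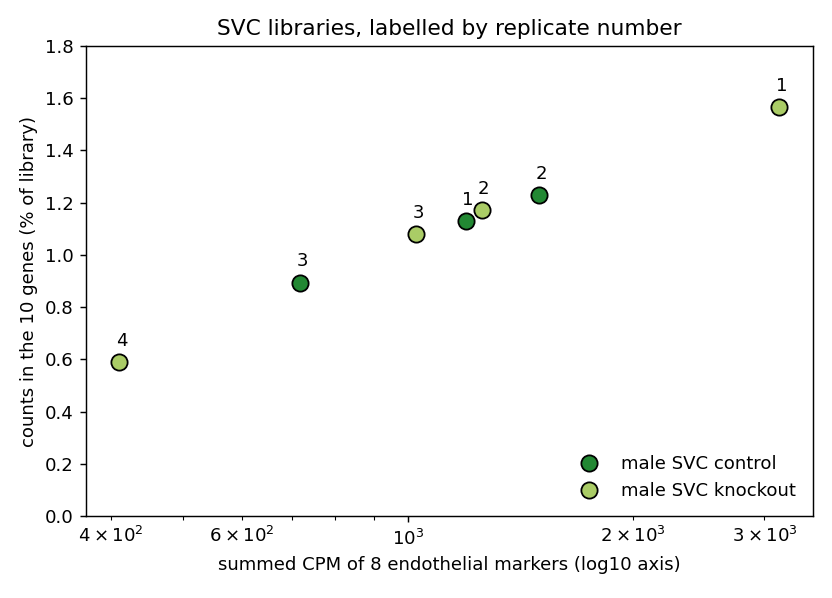
Share of all counts in the 10 genes (%) against the summed CPM of 8 endothelial markers (log10 axis) for the 7 SVC libraries, each labelled by its replicate number. The points rise together from SVC knockout 4 (0.589%) to SVC knockout 1 (1.57%).

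Within groups most members varied more than the median gene, except in SVC controls. Their median SD on the log2(CPM + 1) scale was 0.26 in male control adipocytes and 0.27 in male knockouts, against 0.15 and 0.18 over 17393 genes. In female controls it was 0.28 against 0.19, and in female knockouts 0.46 against 0.19. In SVC it was 0.29 against 0.26 in controls and 0.61 against 0.29 in knockouts. The number of members above the median gene was 9, 9, 10, 10, 5 and 10 of 10 in the same order. In SVC controls Jund, Fosb and Junb lay at percentiles 1.01, 9.81 and 13.8 of all genes. The reference is every gene tested in at least 1 comparison, whatever its level. It therefore holds genes that were not tested in adipocytes, where 14227 passed the filter. On this scale genes near 0 CPM have a small SD, which can lower the median gene. Genes of like level were not compared separately.

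Female knockout 3 stood apart in both directions. It had the highest Fos, Jun, Junb and Egr1 of its group and the lowest Fosb, Fosl2, Jund, Ier3 and Nr4a1. Its Jun was 1301 CPM against 246.6 to 754.9 CPM in the other female knockouts. Its Ier3, at 25.7 CPM, lay below the 78.8 to 196.5 CPM of the others. Male control 1 was the highest of its group in 8 members and the lowest in Jun, and male knockout 4 was the lowest in 7. Here too, how many of all genes ranked so was not counted.

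**Figure D5:**
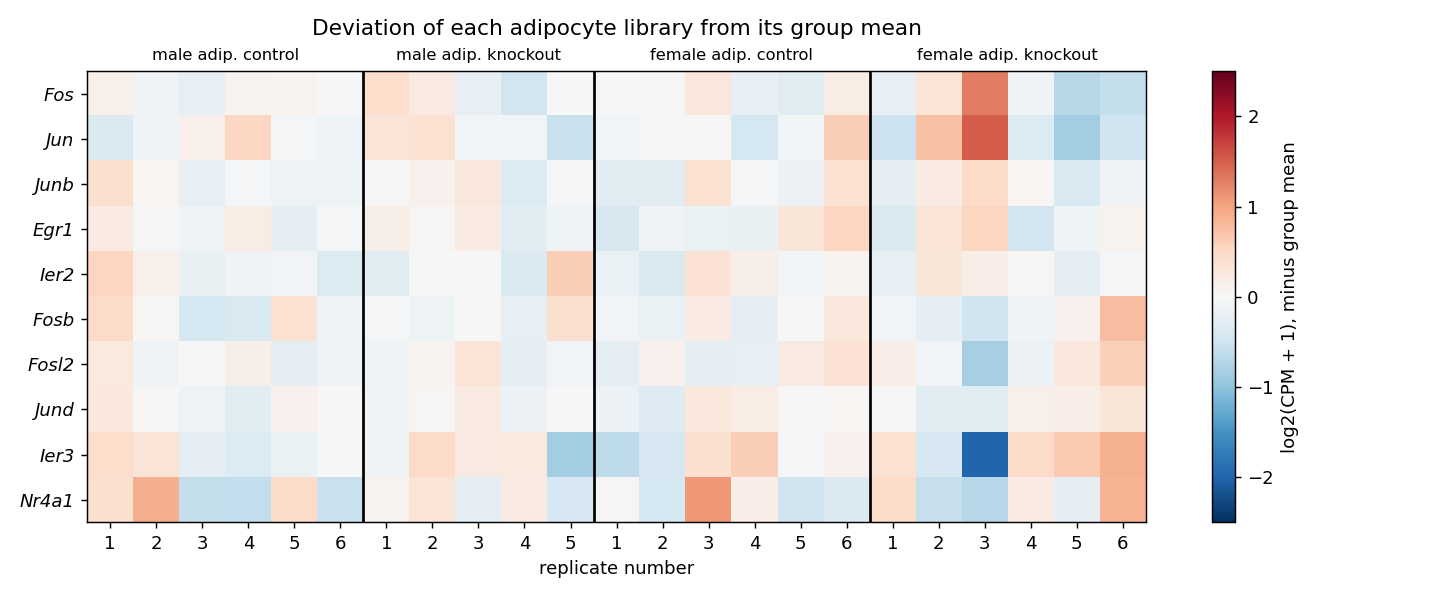
Deviation of each adipocyte library from its group mean on the log2(CPM + 1) scale (colour) for the 10 genes (rows) and 23 libraries (columns, by replicate number). In female knockout 3, Fos, Jun, Junb and Egr1 are red while Fosb, Fosl2, Jund, Ier3 and Nr4a1 are blue.

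The members did not vary as 1 block across the 23 adipocyte libraries. Correlations were computed on values centred on each group mean, so that group differences do not enter, with 100000 permutations of libraries within groups and Benjamini-Hochberg adjustment over the 45 pairs. Of the pairs 27 were positive and 18 negative, and 9 positive and 1 negative had an adjusted p of Pearson's r below 0.05. Libraries share their depth range and handling, so these values describe how the genes vary together and no more.

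Fos and Jun varied together (r = 0.83, permutation adjusted p = 0.00967, Spearman's rho = 0.71, adjusted p = 0.0160). Without the 2 libraries farthest from the median in Fos, r was 0.60. For every pair the 2 libraries left out were chosen by 1 gene only, the earlier of the pair in the opening list. A library that stood apart only in the other gene stayed in. Junb followed Fos (r = 0.66, permutation adjusted p = 0.00967, rho = 0.64, adjusted p = 0.0249, r = 0.50 without 2 libraries) and Ier2 (r = 0.69, permutation adjusted p = 0.00675, rho = 0.77, adjusted p = 0.00337, r = 0.64). Another set joined Jund with Ier3 (r = 0.72, permutation adjusted p = 0.00562, rho = 0.78, adjusted p = 0.00337, r = 0.69) and with Fosb (r = 0.72, permutation adjusted p = 0.00562, rho = 0.71, adjusted p = 0.00930, r = 0.63). Nr4a1 belonged to that set too, with r = 0.62 to Ier3 (permutation adjusted p = 0.00967, rho = 0.65, adjusted p = 0.0115, r = 0.59). The sets were drawn from these same correlations, and pairs across them had either sign. The only negative pair with an adjusted p of Pearson's r below 0.05 was Jun and Jund, and by rank it did not pass (r = -0.61, permutation adjusted p = 0.0326, rho = -0.54, adjusted p = 0.0800, r = -0.46). For Fos and Ier3 the relation rested on outlying libraries, with r = -0.72 (permutation adjusted p = 0.0640, rho = -0.46, adjusted p = 0.172) and -0.37 without 2 of them.

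The members' relations with heat shock genes, which encode chaperones induced by heat and protein damage, differed in sign. Over 10 relations, Jun varied with the summed heat shock level (r = 0.67, permutation adjusted p = 0.00480, rho = 0.67, adjusted p = 0.0184, r = 0.68 without 2 libraries), and so did Egr1 (r = 0.48, permutation adjusted p = 0.0492, rho = 0.54, adjusted p = 0.0327, r = 0.65). Fosb went against it (r = -0.59, permutation adjusted p = 0.0266, rho = -0.59, adjusted p = 0.0316, r = -0.57), as did Jund (r = -0.58, permutation adjusted p = 0.0266, rho = -0.56, adjusted p = 0.0327, r = -0.57) and Nr4a1 (r = -0.53, permutation adjusted p = 0.0483, rho = -0.61, adjusted p = 0.0270, r = -0.51). The other 5 members had adjusted p between 0.174 and 0.989, with Fos at r = 0.26, Junb at -0.0030 and Ier2 at -0.37. For these relations the 2 libraries left out were those farthest from the median in the heat shock sum. Libraries that stood apart only in a member stayed in, as female knockout 3 did for Jun. Hspa1a and Hspa1b, which are near-identical copies whose reads can be split between them, enter that sum together.

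The genes outside the 10 whose pattern was most like the members' mean were sought among 9356 genes in adipocytes. By Pearson's r over 23 centred libraries they were Socs3 (0.87) and Zfp36 (0.66), which encode inhibitors of cytokine signalling and of mRNA stability, Id3 (0.80) and Atoh8 (0.74), which encode helix-loop-helix proteins, and Rnf122 (0.70). In SVC, over 7 libraries and 11528 genes, they were Plpp5, Notch1, S1pr1, Lrch1 and Ctdsp1, with r between 0.995 and 0.999. Over so few libraries, with SVC knockouts 1 and 4 at the ends, high values are common, and they are given as a description only. Of the members themselves, Ier3 was the least like the mean in SVC (r = 0.46) and Jun in adipocytes (r = 0.089).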

How the data were processed

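The measurements were strand-specific mRNA libraries of 30 samples in 6 groups. The authors deposited raw counts per Ensembl gene (35120 genes, 33501 with a symbol), made with FastQC 0.12.1, STAR 2.7.11a and DESeq2 on mm39 per the submitters' processing notes; the roles of these tools are not given there. A second deposited table of transformed values was not used here. Members were matched by Ensembl ID. Members and lists were chosen with earlier results of these data known, and the member list is therefore not independent of them. Levels are CPM of the library total. Tests were edgeR 4.0.16 quasi-likelihood F-tests in R 4.3.3 (TMM scaling, filterByExpr with a minimum count of 10, robust fit, Benjamini-Hochberg adjustment over all genes tested, threshold 0.05). The 23 adipocyte libraries were fitted together, the 7 SVC libraries alone, and the 18 male libraries together for the comparisons of fractions. Alternatives were other scalings, no count filter, DESeq2 1.42.0, limma-voom 3.58.1, a replicate block, other sets of libraries and leaving out each library. Fits on library totals were added after the data were seen. The script was tested on simulated counts. No group held near-identical libraries (lowest chi-square per degree of freedom 11.9 over 64 pairs). Deviations of same-numbered adipocyte and SVC libraries of the knockouts correlated weakly, in all 3 pairs (r from 0.106 to 0.130). In the control fractions r ran from -0.0613 to 0.25, and between female controls and knockouts it reached 0.634. The labels do not say that these numbers are mice, so pairing by number is an assumption of the block. Named genes were all members, the targeted gene, up to 3 called genes each way per list and comparison by smallest p (the 1 gene of smallest p where none was called), and the 5 genes most like the members' mean at a mean CPM of at least 5. Counting error is small beside the spread between libraries, and reads without molecular identifiers are not independent molecules.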

Additional observations from a re-analysis of the deposited data

Results flagged for a closer look

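In 4 of 50 sets of 1 gene in 1 group, the top library stood apart from the others by Dixon's criterion. Its nominal rate of about 1 in 20 sets holds for independent, normally distributed values. The criterion was applied to CPM, and the 50 sets share their libraries, so 4 of 50 cannot be set against that rate. All 4 were in female adipocytes. Fos was 834.8 CPM in female knockout 3, with the next library at 431.7 CPM. Fosb was 1037 CPM in female knockout 6, with the next at 656.4 CPM. Jun was 850.2 CPM in female control 6, with the next at 549.6 CPM. Nr4a1 was 398.0 CPM in female control 3, with the next at 208.6 CPM. Female knockout 3 had the lowest macrophage sum of all adipocyte libraries, 71.2 CPM, and female control 6 the highest heat shock sum, 19790 CPM. The part of either in these values was not tested.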

How the results depend on the processing

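Calls of members kept their number under all alternatives in male adipocytes, in male SVC, in the average, in both interactions and between the sexes (0 members, and 2 between the sexes). In female knockouts it was 1 (Jund) with upper-quartile scaling, DESeq2, limma-voom and library totals, and 0 to 1 with a library left out. Between the fractions it was 7 (library totals) and 5 (the compared groups fitted alone) in controls, and in knockouts 3 (limma-voom), 2 (replicate block) and 3 to 7 with a library left out. Over all genes, DESeq2 called 159 in males, 206 in females, 350 in the average, 23 for the sex interaction, 76 in SVC and 22 for the interaction with fraction. Fitted alone, males gave 6 and females 26. Fitting all 30 libraries gave 48 in the average, 0 for the sex interaction, 19 in SVC and 4 for the interaction with fraction. No count filter gave 1 for the sex interaction. With a library left out, calls ran from 4 to 332 in males (332 without male knockout 5), 32 to 89 in females, 60 to 246 in the average, 0 to 22 for the sex interaction and 0 to 1 in SVC and for the interaction with fraction. For the knockout fractions, where same-numbered libraries had r above 0.1 in 3 of 3 pairs, the replicate block is given with the result. Elsewhere same-numbered libraries had r above 0.1 in 5 of 6 pairs in females, 1 of 5 in males, 1 of 6 between sexes, 2 of 3 in SVC and 2 of 3 in the control fractions. The same-numbered library was the best match in only 2 of 6, 0 of 5, 1 of 6, 0 of 3 and 2 of 3, in that order. Outside the knockout fractions the replicate block gave 10, 65, 102, 1 and 6333 calls over all genes in male, female, average, sex interaction and sex comparisons and 1 in SVC, changing no member's call. Signs that turned were of values not called. Under limma-voom, library totals and the block, Jun in female knockouts was -0.22, -0.048 and -0.15. Library totals gave Jund 0.0039 in male knockouts, Junb -0.0055 and Egr1 -0.011 in SVC knockouts, Jun 0.10, Egr1 0.40 and Ier2 0.17 between control fractions, and Jun 0.25 and Ier2 0.28 between knockout fractions. Upper-quartile scaling gave Junb -0.011 and Egr1 -0.0094 in SVC, limma-voom Junb -0.021 in SVC and Egr1 -0.075 between knockout fractions, and the block Jun 0.11 and Nr4a1 0.036 in SVC and Egr1 -0.056 between knockout fractions. With a library left out, log2 values that changed sign ran as follows. In male adipocyte knockouts Fos ran from -0.21 to 0.0044, Ier3 from -0.016 to 0.27, Junb from -0.042 to 0.13 and Jund from -0.092 to 0.027. In female knockouts Fos ran from -0.13 to 0.37, Fosb from -0.25 to 0.029, Fosl2 from -0.22 to 0.041, Jun from -0.44 to 0.18 and Nr4a1 from -0.40 to 0.12. In SVC knockouts Egr1 ran from -0.21 to 0.41, Fosb from -0.13 to 0.48, Ier3 from -0.078 to 0.38, Jun from -0.41 to 0.16, Junb from -0.095 to 0.22 and Nr4a1 from -0.37 to 0.059. Between the sexes Fos ran from -0.0054 to 0.10, Fosb from -0.040 to 0.15, Jun from -0.043 to 0.25 and Junb from -0.091 to 0.11. Between knockout fractions Egr1 ran from -0.25 to 0.24, Ier2 from -0.40 to 0.072 and Jun from -0.44 to 0.081. The cause of these changes was not tested.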
